A study of Mus musculus with 36 samples.

Results

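Mlycd, Naa16 and Edem1 were genes whose blood transcript level stood far from all other strains in DBA/2J mice. They were read through 5 probe sets (groups of short oligonucleotides that report 1 transcript), 1 for Mlycd, 2 for Naa16 and 2 for Edem1, of 45101 on the array. The set of a gene with the highest mean over all arrays is called its lead set here. The genes were chosen by the measured difference of their lead sets between DBA/2J and the mean of the other 5 strains, on the average of both arrays of each mouse, from 18193 genes with a named set. That difference is therefore described below and not tested. The mice were males of 8 weeks from inbred strains, 3 per strain: DBA/2J, 129S1/ImJ (written 129S1/SvImJ in the protocol), FVB/NJ, A/J, C57Bl/6J and C3H/HeJ. The labels name no transgene or treatment, and blood was drawn from the heart under isoflurane. RNA of each of the 18 mice was hybridized as extracted (whole RNA) and after passage through the GLOBINclear kit, which depletes adult globin transcripts, giving 36 arrays in 12 groups of 3. Values are the deposited log2 summaries.

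Mlycd encodes malonyl-CoA decarboxylase, which turns malonyl-CoA into acetyl-CoA. Malonyl-CoA is the building unit of fatty acid synthesis and blocks carnitine palmitoyltransferase, the gate through which long-chain fatty acids enter mitochondria, so the decarboxylase favours fatty acid oxidation. Naa16 encodes a large ribosome-anchoring subunit of the NatA N-terminal acetyltransferase and is a close relative of Naa15, which carries the catalytic subunit Naa10 in most cells. Edem1 encodes a mannosidase-like protein of the endoplasmic reticulum (ER) that takes misfolded glycoproteins out of the folding cycle for degradation, and it is a target of the unfolded protein response. Blood RNA comes mostly from reticulocytes, with smaller shares from platelets and white cells. In such bulk RNA a change in the number of cells of a type and a change in RNA per cell cannot be told apart.

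In the mouse reference (GRCm38.p6, RefSeq) Mlycd lies on chromosome 8 from 119394852 to 119421838, Naa16 on chromosome 14 from 79334507 to 79390788, and Edem1 on chromosome 6 from 108824045 to 108859356. The windows around an annotated start of each gene, 250 bases before to 50 after it, are shown because the strain difference of each gene was one of transcript level. They are the C57BL/6J reference and hold no DBA/2J sequence. The Mlycd window is chr8:119394644-119394943 on the plus strand, that of Naa16 is chr14:79390619-79390918 on the minus strand, and that of Edem1 is chr6:108828391-108828690 on the plus strand. Capitals mark CCAAT and GGGCGG on either strand.
Mlycd: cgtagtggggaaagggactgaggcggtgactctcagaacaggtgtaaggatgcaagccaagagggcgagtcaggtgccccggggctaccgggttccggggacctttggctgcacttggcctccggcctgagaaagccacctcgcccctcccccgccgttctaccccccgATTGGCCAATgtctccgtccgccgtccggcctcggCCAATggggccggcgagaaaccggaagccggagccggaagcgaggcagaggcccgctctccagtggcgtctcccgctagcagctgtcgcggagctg
Naa16: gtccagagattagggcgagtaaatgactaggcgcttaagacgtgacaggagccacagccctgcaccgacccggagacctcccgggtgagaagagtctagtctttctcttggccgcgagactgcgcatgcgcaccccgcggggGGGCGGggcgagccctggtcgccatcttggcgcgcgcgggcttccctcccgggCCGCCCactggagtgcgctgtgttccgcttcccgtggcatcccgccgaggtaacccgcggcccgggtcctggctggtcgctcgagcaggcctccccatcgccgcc
Edem1: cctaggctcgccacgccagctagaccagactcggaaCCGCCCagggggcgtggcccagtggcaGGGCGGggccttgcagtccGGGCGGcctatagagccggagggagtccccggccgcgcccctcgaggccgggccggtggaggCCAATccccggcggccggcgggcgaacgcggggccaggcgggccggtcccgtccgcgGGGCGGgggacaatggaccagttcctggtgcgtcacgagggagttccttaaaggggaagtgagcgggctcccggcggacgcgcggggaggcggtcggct
The 3 windows shared no common set of these letters. That of Mlycd held 3 matches to CCAAT and 0 to GGGCGG, that of Naa16 held 0 and 2, and that of Edem1 held 1 and 4. Among all 32851 such windows 37.4% held CCAAT and 35.7% held GGGCGG. The ER stress response element (CCAAT, then 9 bases of any kind, then CCACG, on either strand; it overlaps the CCAAT search) was in 0 of the 3 windows and in 0.119% of all. GC made up 68.0% of the Mlycd window, 69.7% of that of Naa16 and 76.0% of that of Edem1, against a median of 52.7%. Matches are descriptions of these letters in the reference.

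On arrays of whole RNA 2196 to 3122 probe sets reached log2 5, and 3802 to 5278 after globin depletion. The DBA/2J arrays lay inside the range of the other strains after depletion (4122 to 4638). In whole RNA 2196 to 2468 sets reached that level in DBA/2J and 2235 to 3122 in the others. Defining markers of blood were present. The 14 red cell genes averaged 8.91 to 9.46 in DBA/2J and 8.34 to 9.92 in the other strains after depletion, and the 11 platelet genes 10.71 to 10.95 and 10.07 to 11.29. The mean of 10 heart muscle genes stood at 2.91 to 2.98 on all DBA/2J arrays, near the array medians (2.78 to 2.94), and reached 4.92 on an array of another strain. Among 12 T cell, 10 neutrophil and 9 monocyte genes the DBA/2J means also lay within the range of the other strains in both preparations. The mean of 11 B cell genes was 5.51 to 5.87 in DBA/2J after depletion, in the upper part of the range of the others (3.85 to 5.95), and the mean of 9 NK cell genes was 3.23 to 3.68, in the lower part (3.09 to 4.99). In the DBA/2J contrast 1 of 9 tested B cell genes was called (Cd22, 1.33, limma adjusted p = 0.0183), with a list median of 0.68. Of the 11 platelet genes 1 was called (Treml1, 0.86, limma adjusted p = 0.0311), with a list median of 0.11. Of the 7 tested NK cell genes 0 were called, with a list median of -0.37. Of all genes 2.2% were called. At an unadjusted p under 0.05 there were 4 of 9 B cell genes (44.4%), 2 of 7 NK cell genes (28.6%) and 5 of 11 platelet genes (45.5%), against 10% of all genes. Of those platelet genes, Treml1, Ppbp (0.78), Gp1bb (0.56) and Tubb1 (0.56) were higher in DBA/2J and Pf4 (-0.33) was lower. The part that platelet, B or NK cell content had in the results below was not tested.

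Mlycd was detected well above the array median in DBA/2J alone. In whole RNA of DBA/2J mice 1, 2 and 3 its probe set (1449964_a_at) read 6.37, 5.55 and 4.79, and in GLOBINclear RNA 8.86, 8.15 and 8.51. On the 15 arrays of the other strains it read 2.62 to 2.73 (median 2.68) in whole RNA and 2.54 to 3.01 (median 2.67) after depletion. The ranges were thus 2.06 apart in whole RNA and 5.15 apart in GLOBINclear RNA. Ranked among all probe sets of an array, the DBA/2J values lay between the 94.5th and 98.0th percentile, and those of the other strains between the 26.6th and 61.9th. The difference on mouse averages was 4.37, with 1 group at the level of the middle of the array.

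The lead set of Naa16 (1429057_at) showed a like pattern from a slightly higher base. DBA/2J mice 1, 2 and 3 read 5.03, 5.51 and 6.49 in whole RNA and 8.56, 8.91 and 8.91 in GLOBINclear RNA. The other strains read 3.22 to 3.67 (median 3.59) in whole RNA and 3.96 to 4.86 (median 4.19) after depletion. No DBA/2J array overlapped them, with gaps of 1.36 and 3.70. The difference on mouse averages was 3.32. In whole RNA the DBA/2J mouse highest for Mlycd was lowest for Naa16, and the mouse lowest for Mlycd was highest for Naa16.

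The second Naa16 set (1429056_at) did not show it. It read 2.72 to 2.73 in whole RNA of DBA/2J and 2.75 to 3.01 after depletion, against 2.70 to 2.78 and 2.61 to 3.63 in the other strains. All strains overlapped, and the difference on mouse averages was 0.01. With a mean under the filter of log2 2.89 this set was the only one of the 5 that was not tested. The high Naa16 level in DBA/2J therefore rests on 1 of 2 probe sets, and the mean of both sets differed by 1.67.

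**Figure D1:**
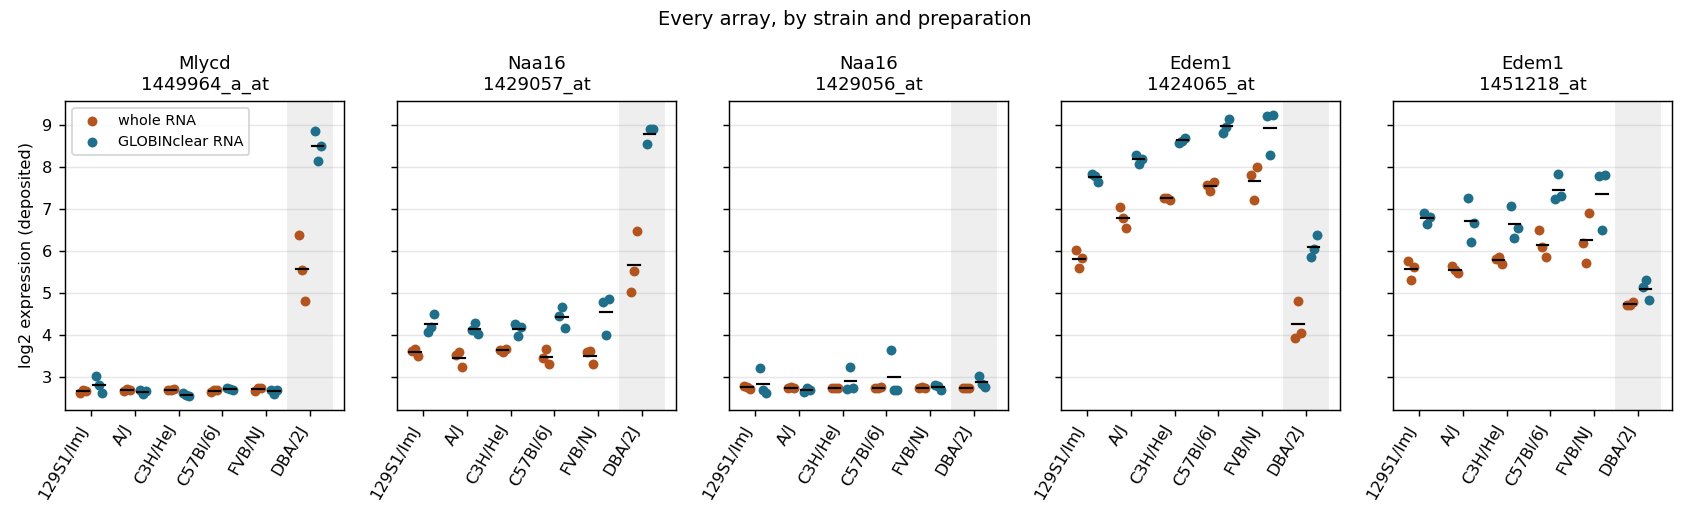
Deposited log2 expression of the 5 probe sets on every array, by strain on the horizontal axis, with whole RNA in brown, GLOBINclear RNA in blue, and short bars for the mean of 3 arrays. DBA/2J (shaded) lies above all other strains for Mlycd and the Naa16 lead set, with means of 8.51 and 8.79 after depletion, and below them for both Edem1 sets, while the second Naa16 set is at the bottom of the scale in every strain.

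Edem1 was expressed in all 6 strains and lowest in DBA/2J on both of its probe sets. The lead set (1424065_at) read 3.92, 4.80 and 4.04 in whole RNA of DBA/2J mice 1, 2 and 3 and 5.85, 6.04 and 6.38 after depletion. The other strains read 5.59 to 7.99 (median 7.22) in whole RNA and 7.64 to 9.25 (median 8.59) after depletion. The DBA/2J arrays lay 0.79 and 1.27 below the lowest of them. On mouse averages the difference was -2.59, or 6.01-fold lower. The DBA/2J values held the 88.6th to 94.2nd percentile of their arrays.

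The second Edem1 set (1451218_at) gave 4.70, 4.70 and 4.78 in whole RNA of DBA/2J and 5.14, 5.30 and 4.84 after depletion. The other strains gave 5.30 to 6.91 and 6.22 to 7.85, so that the groups did not overlap in either preparation. The difference was smaller on this set, -1.52 on mouse averages, or 2.87-fold lower. Across all 22518 tested sets, 0.0888% had every DBA/2J array above every other array in both preparations and 0.12% had every one below. The 2 lead sets that were higher and both Edem1 sets were among them, which the choice of the genes had fixed for the lead sets. By limma with adjusted p under 0.05, 2.14% of the tested sets differed between DBA/2J and the other strains, 1.03% higher and 1.11% lower (over lead sets 1% and 1.2%). Rises made up 47.9% of these calls as deposited, 58.2% with all arrays quantile normalized and 57.1% with each preparation normalized so.

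Among the lead sets of the 11353 genes tested, Mlycd and Naa16 had the largest positive differences. Over all 22518 sets, unnamed and second sets included, they ranked 5 and 10. The next were the noncoding gene E330020D12Rik (2.82), H2-Ea, an MHC class II chain gene (2.64), and Srp14, of the signal recognition particle (2.56). On the negative side Edem1 was second. Gdpd3, a phosphodiesterase gene, stood lower (-4.48), and Igha, the IgA heavy chain (-2.58), and Jpt1 (-2.26) came next.

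Differences among the other 5 strains did not enter the choice and were tested by limma's F test on mouse averages. It called the Edem1 lead set (adjusted p = 0.00155), in a test that called 11.2% of all tested sets. Mlycd passed the filter on low values only through DBA/2J, since its means in these 5 strains lay under log2 2.89, so its test among them is not given. The Edem1 lead set averaged 6.78 ± 0.12 (SD, n = 3) in 129S1/ImJ, 7.49 ± 0.16 in A/J, 7.95 ± 0.01 in C3H/HeJ, 8.27 ± 0.12 in C57Bl/6J and 8.30 ± 0.48 in FVB/NJ, with DBA/2J at 5.17 ± 0.27. Neighbours in this order, which was sorted from the same values, had ranges of mouse averages that did not overlap, except C57Bl/6J and FVB/NJ. The share of all sets with such an order is not given here. On the second Edem1 set A/J overlapped 129S1/ImJ, 129S1/ImJ overlapped C3H/HeJ, and C57Bl/6J overlapped FVB/NJ.

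Of the 10 pairs of these strains, 3 differed on the Edem1 lead set by limma after Benjamini-Hochberg adjustment over all sets. 129S1/ImJ was below C3H/HeJ by 1.16 ± 0.23 (SE, first minus second -1.16, adjusted p = 0.0130, 2.14% of all sets called). It was below C57Bl/6J (-1.48 ± 0.23, adjusted p = 0.00104, 5.43% called) and below FVB/NJ (-1.51 ± 0.23, adjusted p = 0.00111, 5.73% called). The other 7 pairs were not called. Of all sets, 5.21% were called between 129S1/ImJ and A/J, 1.17% between A/J and C3H/HeJ, 5.97% between A/J and C57Bl/6J, 3.36% between A/J and FVB/NJ, 4.27% between C3H/HeJ and C57Bl/6J, 2.45% between C3H/HeJ and FVB/NJ, and 3.47% between C57Bl/6J and FVB/NJ. The step from 129S1/ImJ to A/J (-0.71 ± 0.23) was not past the threshold (limma adjusted p = 0.0989). The second Edem1 set had its strains between 6.14 ± 0.29 (A/J) and 6.82 ± 0.65 (FVB/NJ) and was not called (limma adjusted p = 0.193). Without FVB/NJ replicate 2 it was called (range of strain means 1.04, adjusted p = 0.0121). With all mice, the 3 differences called on the lead set were smaller on this second set, and none was called there. 129S1/ImJ minus C3H/HeJ was -0.04, minus C57Bl/6J -0.63 (limma adjusted p = 0.268) and minus FVB/NJ -0.65 (limma adjusted p = 0.22).

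Mlycd and Naa16 varied little among these 5 strains. Mlycd strain means ran from 2.63 ± 0.01 (SD, n = 3) in C3H/HeJ to 2.72 ± 0.09 in 129S1/ImJ, and neighbours in that order overlapped except C3H/HeJ and A/J. Naa16 means ran from 3.79 ± 0.16 in A/J to 4.02 ± 0.20 in FVB/NJ, and the ranges of all neighbours in that order overlapped. Naa16 was not called by limma's F test (adjusted p = 1). The Mlycd readings were too low for a difference among these strains to be seen.

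The globin depletion effect (GLOBINclear minus whole, the mouse as a block) does not use the strain difference. Over all 18 mice the Edem1 lead set rose by 1.54 ± 0.09 (SE, limma adjusted p = 2.16e-12, 18 of 18 mice) and the second Edem1 set by 1.0 ± 0.11 (adjusted p = 4.42e-08, 18 of 18 mice). The Naa16 lead set rose by 1.16 ± 0.22 (limma adjusted p = 4.69e-05, 18 of 18 mice). Mlycd changed by 0.48 ± 0.26 (SE, higher in 9 of 18 mice). Its test is not read, because the set passed the filter only through DBA/2J. Of all tested sets 39.4% were called higher and 47.6% lower, so that calls of the 3 other sets are near the background of 87%. The split of all calls moved with the scale, from 45.3% rises as deposited to 99.9% when arrays were centred on the hybridization spike-ins, which shifts the median of all sets to 2.03.

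The rise of the second Edem1 set turned to -0.32 (limma adjusted p = 0.00634) when all arrays were forced to 1 distribution, while those of the Edem1 and Naa16 lead sets kept their direction and call (0.29 and 0.68). For Mlycd the effect passed the threshold after median centring (0.57, limma adjusted p = 0.0465), after quantile normalization of all arrays (0.31, adjusted p = 0.0325), after spike-in centring (2.56, adjusted p = 9.97e-11) and without the mouse as a block (adjusted p = 0.0320).

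The gain after depletion was larger in DBA/2J for Naa16 on the deposited scale. The test across 6 strains called its lead set (limma adjusted p = 0.000807, 2.44% of all sets called) and neither Edem1 set (adjusted p = 0.413 and 0.416). Mlycd rose by 2.48, 2.60 and 3.71 in the DBA/2J mice, a mean of 2.93 ± 0.68 (SD, n = 3), and changed by -0.16 to 0.39 in the other 15 mice. The difference of these changes was 2.94 ± 0.18 (SE). It is given as a description, because in the other strains Mlycd read near the array median in both preparations and a rise there could not be seen. Naa16 rose by 2.42 to 3.54 in DBA/2J (mean 3.12 ± 0.61) and by 0.36 to 1.57 in the others (mean 0.77 ± 0.34, n = 15), a difference of 2.35 ± 0.24 (SE, limma adjusted p = 0.000135). In both genes the DBA/2J changes did not overlap the others, but the share of all sets that do so is not given here. For Naa16 the other strains read 3.22 to 3.67 in whole RNA, a little above the array medians there (2.86 to 2.94). Summaries compress differences at such levels, and the part this had in the Naa16 difference was not tested.

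Only 0.493% of all tested sets were called with a larger rise in DBA/2J, and the Naa16 lead set was among them. Calls of either direction were 0.675% of the sets, with 73% of them larger rises as deposited and 57.1% with all arrays quantile normalized. Of the 231 sets called higher in DBA/2J 75 had it (32.5%), and of the 22036 sets not called in DBA/2J 31 (0.141%), given as counts with no test since both rest on the same mice. The Naa16 call was lost when all arrays were quantile normalized (1.10, limma adjusted p = 0.116). Mlycd in the other 5 strains, near background in both preparations, changed by -0.0047 ± 0.07 (SE), whereas Naa16 rose there by 0.77 ± 0.10 (limma adjusted p = 2.07e-06). In those strains 86.6% of all sets were called, 39.2% higher and 47.4% lower.

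Edem1 rose in DBA/2J by 1.84 ± 0.55 (SD, n = 3, limma adjusted p = 9.37e-07) on its lead set, in a test that called 55.9% of all sets, 30.4% higher and 25.4% lower. Its second set changed there by 0.37 ± 0.28 (limma adjusted p = 0.169), against 1.48 ± 0.29 and 1.13 ± 0.39 in the other 15 mice. The difference between DBA/2J and the others was 0.36 ± 0.20 (SE) on the first and -0.76 ± 0.25 on the second, of opposite direction, and neither passed (limma adjusted p = 0.562 and 0.253).

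**Figure D2:**
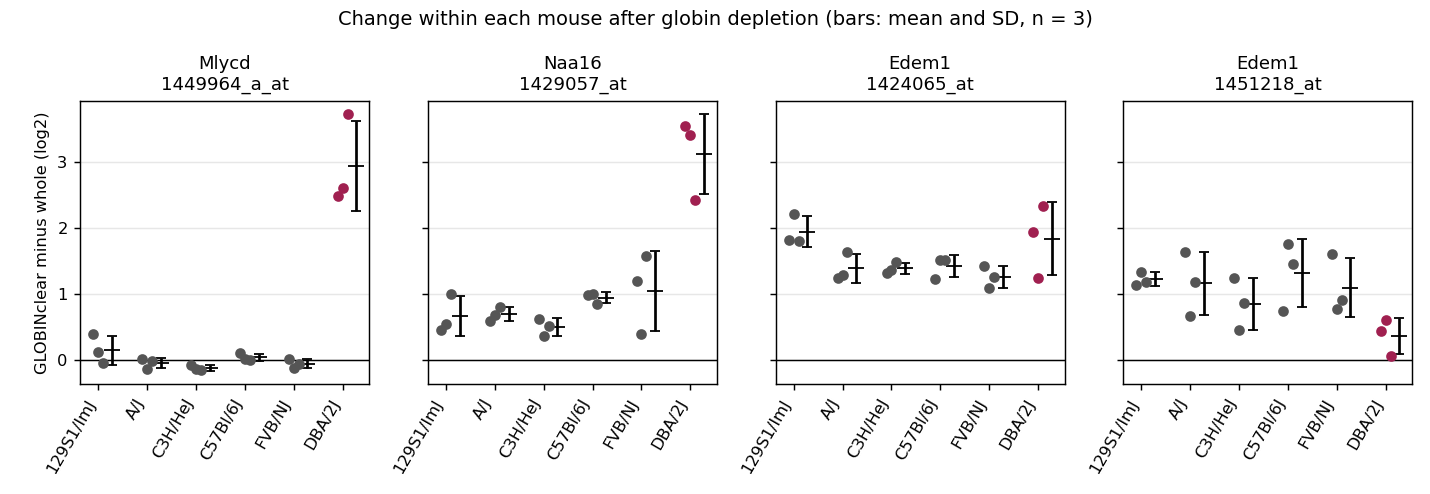
Change within each mouse after globin depletion (GLOBINclear minus whole, log2), by strain, for the 4 tested member sets, with the mean and SD of 3 mice beside the points. DBA/2J (red) rises by 2.48 to 3.71 for Mlycd and by 2.42 to 3.54 for Naa16. The other 15 mice change by -0.16 to 0.39 and by 0.36 to 1.57. DBA/2J overlaps the others for the Edem1 lead set.

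No other tested gene of malonyl-CoA and fatty acid metabolism was called in DBA/2J, which is near the share of all genes. By limma 0 of the 26 tested genes of that list were called higher and 0 lower (3 at an unadjusted p under 0.05, where 10% of all genes were), with a median difference of -0.09, where 2.2% of all genes tested were called and the median was -0.01. Cpt1a, the carnitine palmitoyltransferase that malonyl-CoA inhibits, averaged 4.31 ± 0.08 (SD, n = 3) in DBA/2J and 4.34 ± 0.15 (n = 15) in the others. Acaca, the carboxylase that makes malonyl-CoA, averaged 2.92 ± 0.04 and 3.01 ± 0.23, and Acacb, its relative of the mitochondrial surface, too dim to be tested, 2.70 ± 0.01 and 2.78 ± 0.11. Fasn, the fatty acid synthase, averaged 3.46 ± 0.14 and 3.53 ± 0.31. Several of these were close to background, where a difference could be hidden.

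Of the 12 tested genes of N-terminal acetylation and methionine removal 0 were called in either direction by limma (2 at an unadjusted p under 0.05, median 0.01). Of all genes 2.2% were called and 10% had such an unadjusted p, so these counts are near the background. Naa15, the relative of Naa16, averaged 4.65 ± 0.16 (SD, n = 3) in DBA/2J and 4.41 ± 0.15 (n = 15) in the others, a difference of 0.24 ± 0.11 (SE, limma adjusted p = 0.538). Naa38, a subunit of the NatC acetyltransferase, averaged 4.45 ± 0.28 and 5.51 ± 0.48, a difference of -1.07 ± 0.27 just outside the threshold (limma adjusted p = 0.0546).

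Among genes of ER quality control and degradation 0 of 37 were called higher and 2 lower (5.41% called, against 2.2% of all genes, median -0.06). At an unadjusted p under 0.05 there were 3 (8.11%, against 10% of all genes). Erlec1, an ER lectin that delivers glycoproteins to the degradation complex, averaged 6.05 ± 0.25 (SD, n = 3) in DBA/2J and 7.13 ± 0.94 (n = 15) in the others (-1.08 ± 0.20, SE, limma adjusted p = 0.00688). Sec61b, a subunit of the translocation channel, averaged 7.36 ± 0.16 and 8.02 ± 0.37 (-0.67 ± 0.15, limma adjusted p = 0.0287). Edem3, a relative of Edem1, averaged 3.52 ± 0.05 and 3.35 ± 0.19 and was not called (limma adjusted p = 0.883), and Edem2, too dim to be tested, 2.71 ± 0.01 and 2.88 ± 0.24.

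Of 20 genes of the unfolded protein response 0 were called higher and 1 lower (5%, against 2.2% of all genes, median -0.05), and the same number passed at an unadjusted p under 0.05 (5%, against 10%). Counts this small are near the background. It was Ddit3, a stress-induced transcription factor, with 3.56 ± 0.09 (SD, n = 3) in DBA/2J against 4.37 ± 0.70 (n = 15) (-0.81 ± 0.17, SE, limma adjusted p = 0.0190). Hspa5, the main ER chaperone, averaged 6.19 ± 0.05 and 6.30 ± 0.58 (limma adjusted p = 1), and Xbp1, a transcription factor of that response, 4.75 ± 0.46 and 5.18 ± 0.71 (adjusted p = 1). Erlec1, Sec61b and Ddit3 also differed among the other 5 strains (limma F test, adjusted p = 6.42e-05, 0.0221 and 0.000364). Calls in these lists depended on single mice. Their number was 3 with all mice, 0 without DBA/2J replicate 1 or without DBA/2J replicate 2, 1 without DBA/2J replicate 3, 5 without 129S1/ImJ replicate 3, and 0 in whole RNA alone.

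**Figure D3:**
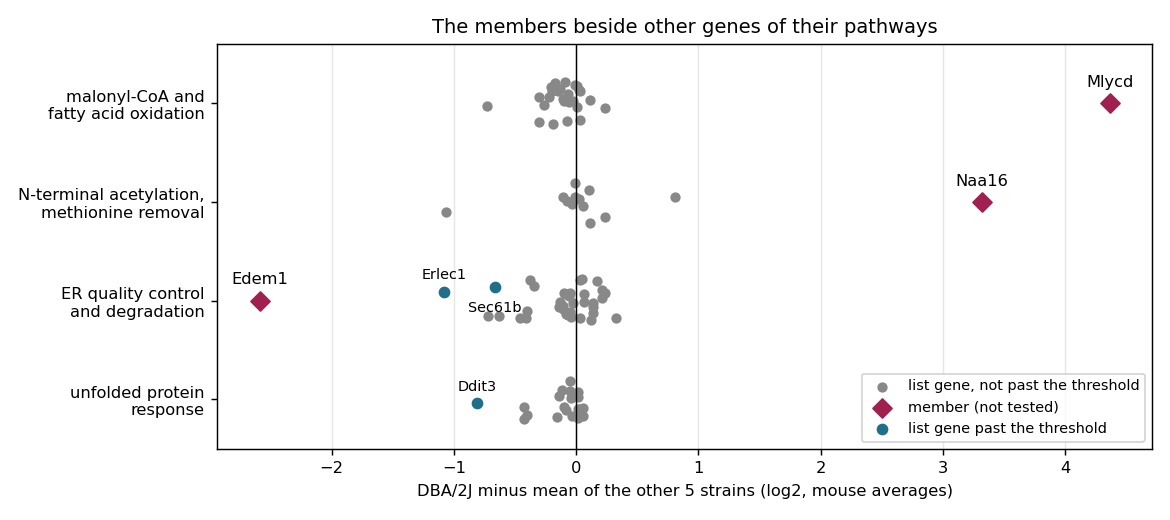
Difference between DBA/2J and the mean of the other 5 strains (log2, mouse averages) for tested genes of 4 lists, 1 point per gene, with the members as red diamonds. Mlycd (4.37), Naa16 (3.32) and Edem1 (-2.59) lie outside the range of their lists, which their choice by this same difference had fixed. In the lists Erlec1, Sec61b and Ddit3 (blue) were past the threshold, all lower in DBA/2J.

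Genes next to the members on the chromosome were covered only in part. Of the 10 genes on each side of each member, 23 of 60 had a probe set with that symbol alone and 15 were tested. None of the 15 was called in DBA/2J against the other strains by limma (0 higher and 0 lower, 0 at an unadjusted p under 0.05, where 2.2% of genes were called). A count of 0 among 15 is near that share. On chromosome 8 Hsbp1, 45.9 kb from Mlycd and a heat shock factor binding protein gene, averaged 7.04 ± 0.41 (SD, n = 3) in DBA/2J and 6.90 ± 0.61 (n = 15) in the others. Osgin1, 4.04 kb from Mlycd and too dim to be tested, averaged 2.98 ± 0.15 and 2.73 ± 0.26. Mbtps1, Hsdl1, Taf1c, Cdh13 and Mphosph6 differed by -0.11 to 0.06. Of these, Mphosph6 (mean 3.21), Mbtps1 (3.14) and Taf1c (3.01) were close to background, where a difference could be hidden.

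On chromosome 14 Wbp4, a splicing factor gene 69.2 kb from Naa16, had the largest difference of the 15 (0.32 ± 0.19, SE, limma adjusted p = 0.772). Rgcc, 32.9 kb away, averaged 3.98 ± 0.01 (SD, n = 3) in DBA/2J and 4.17 ± 0.52 (n = 15) in the others, and Kbtbd7, 35.7 kb away, 3.68 ± 0.10 and 3.77 ± 0.15. Near Edem1 only Grm7 and the noncoding gene 1700054K19Rik were tested, 1786 kb and 3351 kb away and both close to background, with differences of -0.01 and -0.02. The surroundings of Edem1 were therefore hardly covered.

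**Figure D4:**
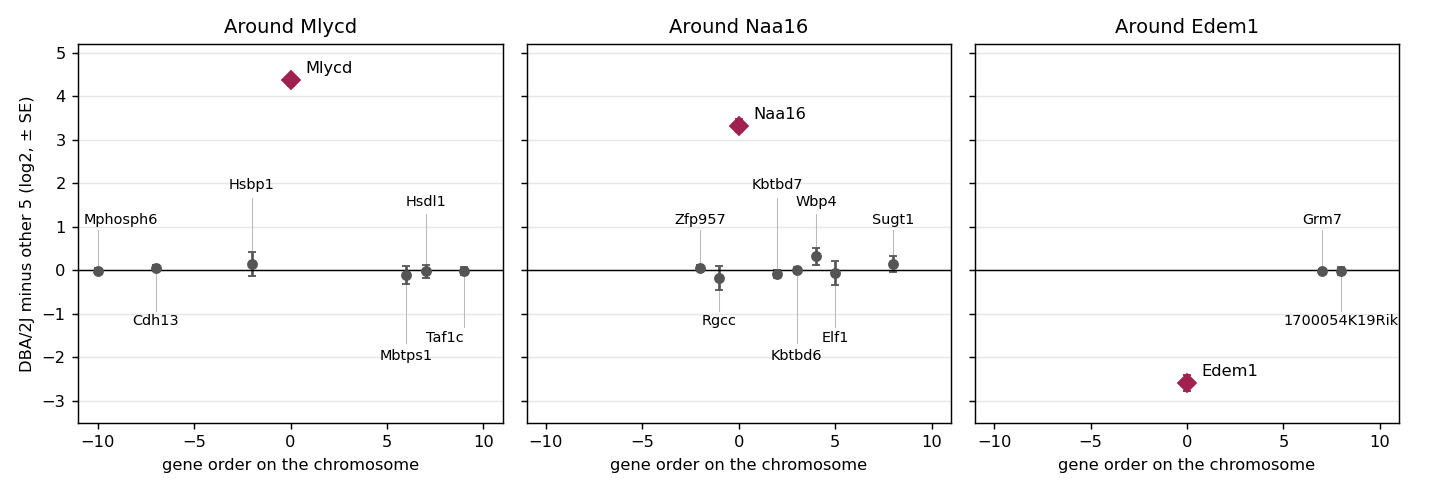
Difference between DBA/2J and the other 5 strains (log2, mouse averages, ± SE) for each member (red diamond at 0) and its tested neighbours, placed by their order on the chromosome. The 15 neighbours lie between -0.18 and 0.32, against 4.37, 3.32 and -2.59 for Mlycd, Naa16 and Edem1, which were chosen by this difference.

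Genes whose lead set followed the members most closely over the 18 mouse averages were, for Mlycd, Cbln3 (Pearson r 0.990), Mcfd2 (0.961), Mr1 (0.956), E330020D12Rik (0.946) and Rassf4 (0.939). For Naa16 they were Rassf4 (0.959), Mr1 (0.956), Cbln3 (0.954), E330020D12Rik (0.925) and H2-Ea (0.923). Cbln3 averaged 3.92 in DBA/2J and 2.86 in the others, Mr1 4.43 and 2.82, and Rassf4 4.51 and 3.10. Gm32031 (-0.904 and -0.894), Rab5if (-0.901 and -0.865) and Rc3h1 (-0.864 and -0.847) ran opposite to both. These values rest on the contrast of DBA/2J with the rest. In the 15 mice of the other strains the same genes had r between -0.29 and 0.56 with Mlycd or Naa16.

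For Edem1 the closest were Rabgap1l (0.950 over 18 mice), Actb (0.882), Jpt1 (0.873), Mbnl1 (0.866) and Rab5if (0.865), and the most opposite Rassf4 (-0.897), Cbln3 (-0.857) and E330020D12Rik (-0.845). Among the 15 mice without DBA/2J, r with Edem1 was 0.832 for Rabgap1l, 0.859 for Actb, 0.773 for Jpt1, 0.652 for Mbnl1 and 0.365 for Rab5if. For the opposite genes it was -0.54 for Rassf4, -0.23 for E330020D12Rik and 0.16 for Cbln3, whose sign turned. The genes were picked on 18 mice that include these 15, so the values among the 15 are no independent check. Mice of a strain share its genotype, so these points are not independent. Of all these genes only Cbln3 (chromosome 14, with Naa16) and Rassf4 (chromosome 6, with Edem1) lie on the chromosome of a member.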

How the data were processed

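RNA from 18 mice was measured on 36 Affymetrix arrays, 1 per mouse and preparation, and arrays were grouped by their titles. The values were log2 summaries deposited by the authors, 1 per probe set and array, and the scale was read from the values. GCRMA, MAS5 and affy are named, with no role or version, per the submitters' processing notes. The normalization between arrays is unstated in these sources. Summaries of this kind compress differences near background.

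With 64 control sets set aside, a filter kept the brighter 22518 sets, those whose mean exceeded log2 2.89, the median set mean. Of all sets in the file other than control sets, tested or not, 34945 had 1 symbol in the platform table, 932 several and 9160 none. Genes were named from sets with 1 symbol. Fits used limma 3.58.1 in R 4.3.3 (lmFit, eBayes with intensity trend) with Benjamini-Hochberg adjustment over all tested sets and a threshold of 0.05. The globin effect had the mouse as a block, strain tests used mouse averages, and differences in the globin effect used within-mouse differences. The globin effects of DBA/2J alone and of the other 5 strains alone were added after seeing the data. Scripts were tested on simulated data. Arrays of 1 mouse come from the same animal per the series design, and their deviations from group means correlated at -0.08 to 0.66 (median 0.38, 18 pairs). Values were not identical between any arrays (0 pairs), and arrays of a group correlated at 0.918 or above. The number of mice, 3 per strain, limits the precision. Plots used matplotlib 3.10.9.

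The members and lists were chosen with earlier results of these data known. The text names every member set, the neighbours above, up to 3 genes per pathway list by moderated statistic among those called plus fixed partners, the 5 most alike and 3 most opposite genes of each member, and the 3 next genes in either direction. Fasn, Hspa5, Xbp1 and Naa38 were added after their values were seen. Naa10 was not analysed here. Cell type markers and partners were read from lead sets.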

Additional observations from a re-analysis of the deposited data

Results flagged for a closer look

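The gain after globin depletion was flagged in DBA/2J against the other 5 strains for 2 member sets, and only that of Naa16 is read as a test. For Mlycd (1449964_a_at) the difference of within-mouse changes was 2.94 ± 0.18 (SE). This set passed the filter on low values only through DBA/2J, and in the other 15 mice it read 2.54 to 3.01, near the array median, in both preparations, so a rise there could not be seen and the value is no independent result. It ranged from 2.55 to 3.16 when each mouse was left out in turn. For Naa16 (1429057_at) it was 2.35 ± 0.24 (SE, limma adjusted p = 0.000135), and 2.14 to 2.70 when each mouse was left out. The Naa16 call was lost with all arrays quantile normalized (1.10, limma adjusted p = 0.116), and its whole RNA readings in the other strains were also low. Groups of 3 arrays were not examined for single outlying arrays.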

How the results depend on the processing

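Across settings other than leaving out a mouse, 142 of 162 recomputed main results were judged the same, and with a mouse left out 333 of 342. Counts and DBA/2J differences were judged by size. Tests of the globin effect were judged by direction and side of the threshold, and F tests by the side alone, so their size could move. With all arrays quantile normalized the globin effect of the Edem1 lead set went from 1.54 to 0.29. The DBA/2J difference of that effect for Mlycd went from 2.94 to 1.37. The exceptions follow, and their cause was not tested except where fewer sets or arrays were used. The count of sets called for the globin effect (19587) was 38578 with no filter and 5628 with a mean of at least log2 4, since more or fewer sets were tested. For the difference of that effect between DBA/2J and the other strains it went from 152 to 84 with that stricter filter and to 84 after quantile normalization of all arrays, where the Naa16 value was 1.10 (adjusted p = 0.116), and over the 6 strains from 550 to 318 and 332. The share of rises among the globin calls was 52.6% after median centring, 99.9% after spike-in centring and 37.5% with all arrays quantile normalized. For the DBA/2J difference of that effect it was 73% as deposited and 57.1% after quantile normalization of all arrays or 60.3% within each preparation, and for DBA/2J against the others 47.9%, 58.2% and 57.1%. The Mlycd globin effect of 0.48 crossed the threshold at 0.57, 0.31 and 2.56 (median centring, quantile normalization of all arrays, spike-in centring). It also crossed with no replicate block, at 0.48. These values are counted here but read as a description, since the set passed the filter only through DBA/2J. In whole RNA alone 908 sets differed among the 5 strains (2522 on averages), 205 in DBA/2J (482) and 0 pathway genes (3). The DBA/2J difference was 2.90 in whole and 5.83 in GLOBINclear RNA for Mlycd, 2.15 and 4.50 for Naa16 (1.67 as the mean of both sets), and for Edem1 -2.05 as the mean of both sets. After quantile normalization of all arrays the second Edem1 set changed by -0.32 over all mice, -0.87 in DBA/2J and -0.20 in the others. At a mean of at least log2 4 Mlycd was not tested and gave no value.

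Leaving out each mouse, the globin effect was called in 19393 to 19564 sets, and ranged from 1.49 to 1.57 for Edem1, 1.02 to 1.21 for Naa16 and 0.29 to 0.52 for Mlycd. Its DBA/2J difference was called in 54 to 180 sets (54 without DBA/2J replicate 3), at 0.11 to 0.65 for Edem1. The effect over 6 strains was called in 423 to 661 sets and the 5-strain difference in 1923 to 2938, with strain ranges of 1.47 to 1.79 for Edem1, 0.15 to 0.34 for Naa16 and 0.06 to 0.14 for Mlycd. DBA/2J against the others gave 251 to 626 sets (278, 283 and 251 without DBA/2J replicates 1, 2 and 3), -2.71 to -2.45 for Edem1, 3.09 to 3.54 for Naa16, 4.08 to 4.56 for Mlycd, 0 to 5 pathway genes and 0 neighbours. With the replicate number as a block, these numbers being no shared animal between strains, no other call of a member changed. Of 45 same-numbered pairs of mice of different strains 15 correlated above 0.1 (from -0.45 to 0.54), and 7 of 18 mice were closest to their own number.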
